A study of Mus musculus with 8 samples.

Results

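DNA methylation was described across the 8 mouse genes that encode the DNA methyltransferases Dnmt1, Dnmt3a and Dnmt3b, the cofactors Dnmt3l and Uhrf1, and the 5-methylcytosine dioxygenases Tet1, Tet2 and Tet3. These genes were taken by name from 26182 genes with a curated RefSeq transcript. Every cytosine of a CpG read between 2 kb upstream of a gene's outermost start site and its end was used, which gave 1500 of the 2130064 cytosines in the table. A promoter ran from 1000 bases upstream to 100 bases downstream of a start site, overlapping promoters of a gene were joined, and the gene body was the rest of the gene. The 8 genes have 13 such promoters, of which 9 held at least 3 read cytosines and 4 held none.

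Dnmt3a and Dnmt3b add methyl groups to unmethylated CpGs, and Dnmt3l is a catalytically inactive relative that stimulates them and is needed to methylate the male germ line. Dnmt1 copies methylation onto the new strand after replication, and Uhrf1 recruits it to hemimethylated CpGs. The Tet enzymes oxidize 5-methylcytosine, which leads to demethylation. Methylation of CpG-dense promoters generally goes with silencing, whereas the bodies of expressed genes are usually methylated.

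The study asked whether arsenic given during gestation changes methylation in the germ cells of male offspring. Pregnant C3H/HeN mice (F0) drank tap water (control), or sodium arsenite at 85 ppm in it between gestational days 8 and 18 (arsenic). Cells were taken from F1 males on postnatal day 6 with magnetic beads against CD49f (Itga6) and are labelled as type A spermatogonia. Each of the 4 control and 4 arsenic samples is a pool of 8 testes from 4 mice, measured by reduced representation bisulfite sequencing (RRBS), which reads CpG-rich fragments cut at CCGG. Bisulfite converts unmethylated cytosines, so the level of a cytosine is the percentage of its reads that were not converted. In pooled cells, a level between 0 and 100% does not tell a mixture of methylated and unmethylated cells from partial methylation in each cell.

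The samples held 96428439 to 121351202 reads over CpGs in the control group and 97433083 to 133406260 in the arsenic group, with a median coverage of 31 to 44 reads, and every cytosine had at least 10 reads in each sample. The mean level over all CpGs was 54.07 to 54.25% in the control and 53.61 to 54.04% in the arsenic samples, without overlap. The labelled cell type was compared with promoters that male germ cells are known to keep unmethylated. Promoters of 10 of 14 maternally imprinted genes were read, with a mean of 52.3 to 62.8% per sample (control 55.2 to 62.8%, arsenic 52.3 to 61.1%). Promoters of 11 of 12 germ line genes were read, with a mean of 80.5 to 85.5% (control 80.8 to 85.5%, arsenic 80.5 to 84.6%), against a median of 1.82% over all promoters. Not 1 of these 21 promoters was below 10%: the lowest imprinted promoter was Usp29 at 48.5% and the lowest germ line promoter Tdrd1 at 60.7%, while Ddx4, an RNA helicase of germ cells, was at 80.2% and Dazl, an RNA-binding protein of germ cells, at 94.9%. These levels go against the label, and their part in the values of the 8 genes was not tested. The cells are therefore called the CD49f-selected cells below.

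Only 10.3% of the 14530 CpG cytosines that the reference holds in the 8 genes were read, from 5.61% in Dnmt3a to 18.3% in Uhrf1. The sequences that frame the promoter results are shown first, as the gene's strand on GRCm38 (mm10), with CpGs read in the table in capitals. The first pair shows the 250 bases (RefSeq) before the start sites of Tet2 (chr3:133544391-133544640, minus strand) and of the downstream start of Uhrf1 (chr17:56304063-56304312, plus strand), which are dense in CpGs and almost free of methylation. The last is the stretch of the Dnmt3l promoter that was read (chr10:78048913-78049209, plus strand), which is poorer in CpGs and mostly methylated.

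Tet2: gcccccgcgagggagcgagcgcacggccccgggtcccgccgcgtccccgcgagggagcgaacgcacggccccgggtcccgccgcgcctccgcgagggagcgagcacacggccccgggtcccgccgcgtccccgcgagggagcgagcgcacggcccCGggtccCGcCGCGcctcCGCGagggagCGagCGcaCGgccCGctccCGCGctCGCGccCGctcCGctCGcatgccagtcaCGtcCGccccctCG
Uhrf1: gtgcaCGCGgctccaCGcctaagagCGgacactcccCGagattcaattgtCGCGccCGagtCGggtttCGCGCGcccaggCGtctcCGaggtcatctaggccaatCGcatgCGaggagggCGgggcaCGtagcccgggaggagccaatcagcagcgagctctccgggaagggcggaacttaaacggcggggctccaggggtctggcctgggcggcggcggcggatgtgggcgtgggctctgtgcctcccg
Dnmt3l: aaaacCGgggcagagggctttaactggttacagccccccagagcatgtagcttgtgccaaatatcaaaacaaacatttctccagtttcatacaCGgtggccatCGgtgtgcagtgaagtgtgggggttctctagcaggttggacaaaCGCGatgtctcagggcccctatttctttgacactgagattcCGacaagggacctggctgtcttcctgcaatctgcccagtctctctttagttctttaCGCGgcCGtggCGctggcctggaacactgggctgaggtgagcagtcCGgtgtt

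The Tet2 sequence held 51 CpGs, of which 20 were read, with a mean of 2.30% over 38 cytosines. The Uhrf1 sequence held 30 CpGs, of which 18 were read, with a mean of 0.985% over 18 cytosines and a highest of 2.52%. The Dnmt3l sequence held 11 CpGs, all of them read, with a mean of 77.4% over 20 cytosines that ranged from 62.8 to 87.1%.

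Most cytosines of the 8 genes were either low or high, as in the whole table. Over the 8 samples, 496 of the 1500 (33.1%) had a mean level under 10%, beside 29.8% of all cytosines. At 80% or more were 697 (46.5%), beside 43.2% of all, and 307 lay between. Low levels sat at the start sites: the 157 cytosines within 500 bases upstream of the nearest start had a mean of 1.82%, and 156 of them were under 10%. The 809 cytosines at 5000 bases or more downstream had a mean of 81.4%. Coding exons were methylated, at 88.4% over 303 cytosines with none under 10%, and introns were mixed, at 55.0% over 815 cytosines. Levels also followed the density of CpGs, as in the whole table: cytosines with at least 15 CpGs within the surrounding 200 bases had a mean of 5.93% over 279 cytosines, beside 6.22% over all cytosines of that density. Where there were 1 to 2 CpGs, the mean was 75.0% over 99 cytosines of the 8 genes and 73.1% over all.

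**Figure D1:**
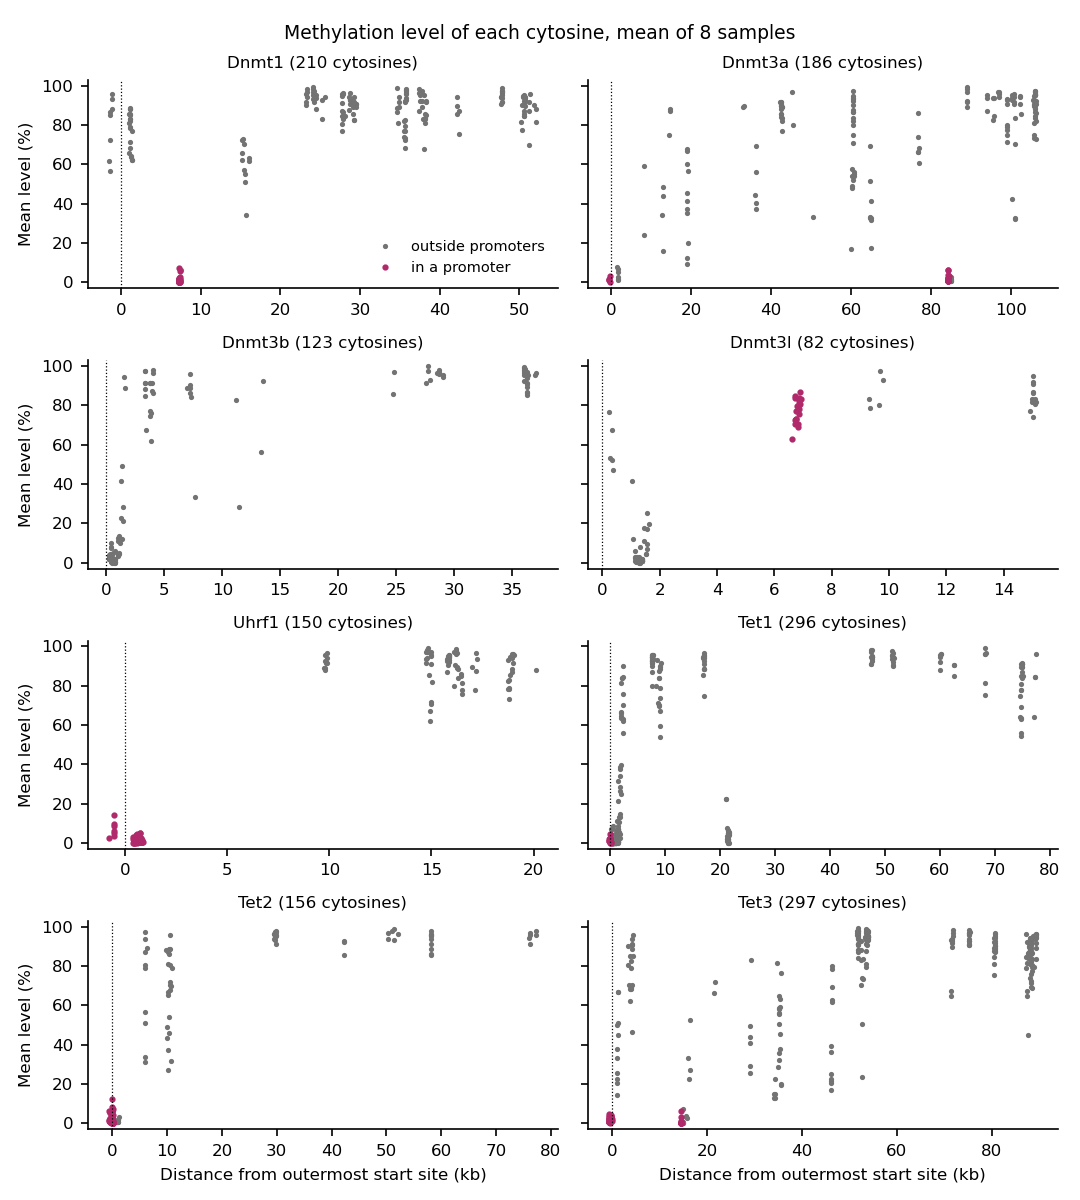
Mean methylation level of each cytosine over the 8 samples (y axis, percent) against its distance from the outermost start site of the gene (x axis, kilobases, positive downstream), with 1 panel per gene; promoter cytosines are coloured and the dotted line marks the outermost start. Promoter cytosines lie near 0% in every gene with a promoter that was read except Dnmt3l, at 62.8 to 87.1%, and 6 stretches outside promoters are under 10%, in Dnmt3a (4.18 and 1.44%), Dnmt3b (8.53%), Dnmt3l (5.51%), Tet1 (4.03%) and Tet2 (1.29%).

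Dnmt1, the maintenance methyltransferase, was unmethylated at 1 of its promoters and highly methylated in its body. The promoter of its downstream start sites (chr9:20952523-20953979, minus strand, 29 cytosines) was at 2.91, 0.766, 1.64 and 0.671% in control replicates 1 to 4 and at 1.41, 0.690, 0.290 and 0.813% in the arsenic samples. Of its 116 CpG cytosines, all 29 read lay in the window of the start at position 20952623. The window of the start at position 20952979 had none read. The groups overlapped, and the means of 1.50% ± 1.04 and 0.800% ± 0.462 (SD, n = 4 each) did not differ beyond the spread (exact permutation test, 2-sided, p = 0.286). This test compares all 70 assignments of 4 of 8 samples, and its smallest p is 0.0286. The promoter of the upstream start (chr9:20959788-20960888), a window with 26 CpG cytosines, had none read, whereas the 1000 bases further upstream were at 74.0 to 84.4% over 8 cytosines. An intron stretch 992 to 1337 bases downstream of the upstream start was at 77.2% over 20 cytosines. The body was at 86.4% ± 1.50 in control and 86.1% ± 0.649 in arsenic samples (173 cytosines, n = 4 each; exact permutation p = 0.800).

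Uhrf1, which brings Dnmt1 to hemimethylated DNA, also had an unmethylated promoter and the most methylated body of the 8 genes. Over the joined promoter of both start sites (chr17:56302337-56304413, plus strand, 69 cytosines) the control samples were at 1.10, 0.930, 1.23 and 2.62% and the arsenic samples at 2.67, 2.26, 4.26 and 2.15%. Control replicate 4 lay among the arsenic samples, and the means of 1.47% ± 0.774 and 2.83% ± 0.979 (SD, n = 4 each) did not pass the test (exact permutation p = 0.0857). The difference of 1.36 points was 0.765 when weighted by coverage (exact permutation p = 0.343). Without 1 library at a time it ran from 0.888 without arsenic replicate 3 (exact permutation p = 0.114) to 1.75 without control replicate 4 (exact permutation p = 0.0286). Control replicate 4 was the only control sample in the arsenic range, and arsenic replicates 2 and 4 lay below it. Leaving control replicate 4 out separates the groups by itself, so that p adds no support. The 7 cytosines upstream of the first start had 7.11%. The other 62 lay between the start sites at a mean of 1.59%, and there the groups did not overlap: 0.339, 0.800, 0.469 and 1.29% in control and 2.22, 1.57, 3.97 and 2.08% in arsenic samples. Levels this low can include unconverted reads of unmethylated cytosines, and the part of such reads was not tested. These 62 are all the cytosines read in the promoter of the downstream start (chr17:56303313-56304413) taken alone, where the means were 0.725% ± 0.425 and 2.46% ± 1.05 (SD, n = 4 each; exact permutation p = 0.0286; logistic model with overdispersion, q = 0.845). With start sites not joined, an alternative chosen after the data were seen, this was 1 of 12 promoters of the 8 genes whose groups did not overlap, beside 3.00% of all 14865. The body was at 89.7% ± 0.252 and 89.5% ± 0.898 (81 cytosines, n = 4 each; exact permutation p = 0.914).

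Dnmt3a, a de novo methyltransferase, was unmethylated at both of its promoters. At the promoter of the longer transcripts (chr12:3805980-3807260, plus strand) only 5 of 280 CpG cytosines were read, and 6 of the 8 samples were at 0%, with control replicate 1 at 8.12% and arsenic replicate 4 at 4.00%. At the internal promoter of the shorter isoform (chr12:3890744-3891844, 16 cytosines) the control samples were at 1.69 to 2.81% and the arsenic samples at 1.25 to 2.44%, with overlap (means 2.20% ± 0.504 and 2.09% ± 0.561, SD, n = 4 each; exact permutation p = 0.800). Of the cytosines read in the internal promoter and around it, 27 also lie in the lncRNA gene Gm31623 on the other strand. Stretches between the promoters varied, from 4.18% over 6 intron cytosines at chr12:3808574-3808744 through 41.2% over 11 at chr12:3825898-3826159 and 83.4% over 3 at chr12:3821515-3821751 to 87.6% over 16 at chr12:3849165-3849693, of which 4 were in a coding exon. The body as a whole was at 69.9% ± 0.623 and 70.2% ± 0.871 (165 cytosines, n = 4 each; exact permutation p = 0.629).

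Dnmt3b, the second de novo enzyme, had no cytosine read in its promoter (chr2:153648449-153649549, plus strand), which holds 112 CpG cytosines in the reference. The nearest read cytosines, 61 of them from 249 to 1563 bases downstream of the start, averaged 9.06% ± 1.95 in the control and 8.01% ± 0.875 in the arsenic group (SD, n = 4 each), and single cytosines of the stretch ranged from 0 to 94.6%. The body, which includes this stretch, was at 49.3% ± 1.68 and 48.6% ± 0.802 (123 cytosines, n = 4 each; exact permutation p = 0.543).

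Dnmt3l, the inactive cofactor, stood apart from the other genes at its promoter. The promoter of 2 neighbouring starts (chr10:78048842-78050059, plus strand) was at 68.1, 72.0, 78.2 and 83.2% in control and at 80.5, 80.9, 72.6 and 83.8% in arsenic samples. The samples of both groups interleaved, and the means of 75.4% ± 6.66 and 79.4% ± 4.78 (SD, n = 4 each) differed by 4.06 points, less than the spread (exact permutation p = 0.314). Without 1 library at a time the difference ran from 1.64 points, without control replicate 1, to 6.67, without control replicate 4. Of all 13254 promoters tested, 856 (6.46%) had at least this level. The SD within groups was 5.80 points, where the median was 3.88 for the 657 promoters at 70 to 85%, and 20.4% of those varied at least as much. The 20 cytosines lay at -924 to -638 bases from the nearest start, with 11 to 70 reads each, so the sequence nearer to the start was not measured. Of the 20, 14 were higher and 6 lower in the arsenic group, and the groups overlapped at every one. The promoters of the first and of the last start (chr10:78041287-78042387 and chr10:78054335-78055435) had no cytosine read.

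**Figure D2:**
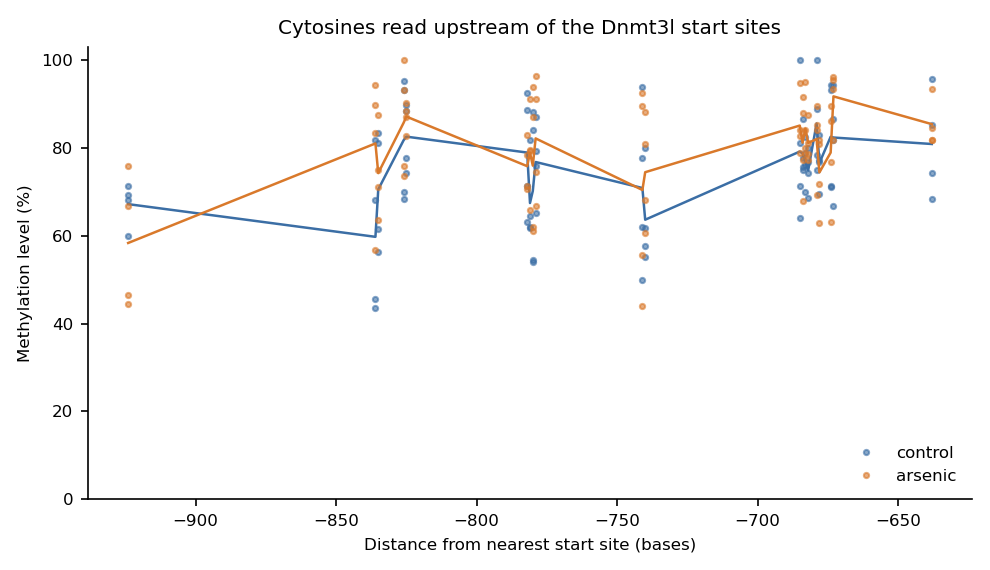
Methylation level (y axis, percent) of the 20 cytosines read in the Dnmt3l promoter against their distance from the nearest start site (x axis, bases; negative is upstream); points are the 4 control and 4 arsenic samples and lines join the group means. All cytosine means over the 8 samples lie between 62.8 and 87.1%, and the samples of both groups interleave at each cytosine.

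Inside Dnmt3l, 40 cytosines from 1049 to 1627 bases downstream of the first start (chr10:78043336-78043914) were at 5.51%. Of the cytosines in Dnmt3l, 23 also lie in Aire, the transcriptional regulator of thymic self-antigen expression, which is transcribed from the other strand and starts inside this stretch at position 78043610. Its 11 cytosines in coding exons were at 86.1%. The whole body was at 32.0% ± 1.04 in control and 31.3% ± 1.36 in arsenic samples (62 cytosines, n = 4 each; exact permutation p = 0.457).

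The 3 Tet genes were unmethylated at all 4 of their promoters. Tet1 (chr10:62887224-62888324, minus strand, 14 cytosines) was at 0.476 to 3.88% in control and 0 to 4.22% in arsenic samples. Tet2 (chr3:133544290-133545390, minus strand, 77 cytosines) was at 0.931 to 3.65% in control and 0.837 to 4.84% in arsenic samples. Tet3 was at 0 to 4.03% and 0 to 4.82% at its upstream promoter (chr6:83456292-83457392, minus strand, 28 cytosines) and at 0 to 1.03% and 0 to 2.38% at its internal promoter (chr6:83441578-83442678, 12 cytosines). The groups overlapped at each of them, and the exact permutation p was 0.800 for Tet1, 0.971 for Tet2, and 0.486 and 0.457 for the upstream and internal promoters of Tet3. The read cytosines of Tet3 around its internal promoter include 12 that also lie in the lncRNA gene B230319C09Rik on the other strand.

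The bodies of the Tet genes differed in how far the unmethylated state reached. In Tet1 a stretch of 154 cytosines from 174 bases upstream to 2352 bases downstream of the start had a mean of 10.1%, and its body as a whole was at 41.4% ± 0.460 and 41.1% ± 0.405 (282 cytosines, n = 4 each; exact permutation p = 0.514). The difference was -0.210 points, and -1.41 when weighted by coverage (exact permutation p = 0.286). A second unmethylated stretch of Tet1 lay in an intron, 21062 to 21627 bases downstream of the start (chr10:62865697-62866262, 28 cytosines), at the start of the lncRNA gene Gm51805, which runs on the other strand from position 62865670 and shares 233 of the read cytosines. The 300 bases of that stretch with the lowest coordinates, shown on the strand of Tet1, held 12 CpGs, all read, at 2.41% over 23 cytosines. The whole stretch was at 4.03%, and its highest cytosine, at 22.4%, lay outside the bases shown.

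Tet1 intron, chr10:62865697-62865996: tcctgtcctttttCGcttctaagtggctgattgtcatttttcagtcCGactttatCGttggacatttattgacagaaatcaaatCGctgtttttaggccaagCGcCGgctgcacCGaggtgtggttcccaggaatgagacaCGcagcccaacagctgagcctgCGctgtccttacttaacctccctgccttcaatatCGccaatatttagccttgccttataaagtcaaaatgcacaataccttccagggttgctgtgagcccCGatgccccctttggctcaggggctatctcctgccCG

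Tet2 was methylated outside the region of its start, at 93.6% over 15 cytosines in coding exons, and its body was at 74.4% ± 1.81 and 74.4% ± 0.824 (79 cytosines, n = 4 each; exact permutation p = 0.971). In Tet3, coding exons were at 87.9% over 117 cytosines, while 4 intron stretches were at intermediate levels, 44.6% over 12 cytosines, 41.8% over 22, 45.4% over 6 and 20.8% over 7. The body of Tet3 showed the largest difference of the 8 bodies in the unweighted mean. Its control samples were at 75.7, 76.1, 76.4 and 76.7% and its arsenic samples at 73.8, 76.0, 75.1 and 74.9%. Arsenic replicate 2 reached into the control range, and the difference of -1.27 points (76.2% ± 0.449 against 75.0% ± 0.882, SD, 257 cytosines, n = 4 each) did not pass the test (exact permutation p = 0.0571). Without 1 library at a time it ran from -1.60 points without arsenic replicate 2 (exact permutation p = 0.0286) to -0.887 without arsenic replicate 1 (exact permutation p = 0.114). Arsenic replicate 2 was the only arsenic sample in the control range. Leaving it out separates the groups by itself, so that p adds no support. With a coverage of 20 the difference was -0.920 points (exact permutation p = 0.171), and weighted by coverage -1.49 (exact permutation p = 0.229).

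Ordered by their unweighted mean over the 8 samples, the bodies ran from Uhrf1 at 89.6% through Dnmt1 at 86.2%, Tet3 at 75.6%, Tet2 at 74.4%, Dnmt3a at 69.9% in control and 70.2% in arsenic samples, Dnmt3b at 48.9% and Tet1 at 41.3% to Dnmt3l at 31.7%. The sample ranges of Uhrf1 and Dnmt1 touched, with a lowest Uhrf1 sample of 88.2% and a highest Dnmt1 sample of 88.5%, and those of Tet3 and Tet2 overlapped. The other neighbours in this order were apart in all samples. Weighted by coverage, the range of Dnmt3a (74.5 to 77.4%) also overlapped that of Tet2 (74.4 to 80.4%), and Dnmt3b (47.1 to 51.5%) overlapped Tet1 (45.9 to 51.4%). The levels rest on the cytosines that happened to be read in each gene. Of all 18956 bodies, 95.3% were below Uhrf1 and 91.0% below Dnmt1, and 28.1% were below Dnmt3l.

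**Figure D3:**
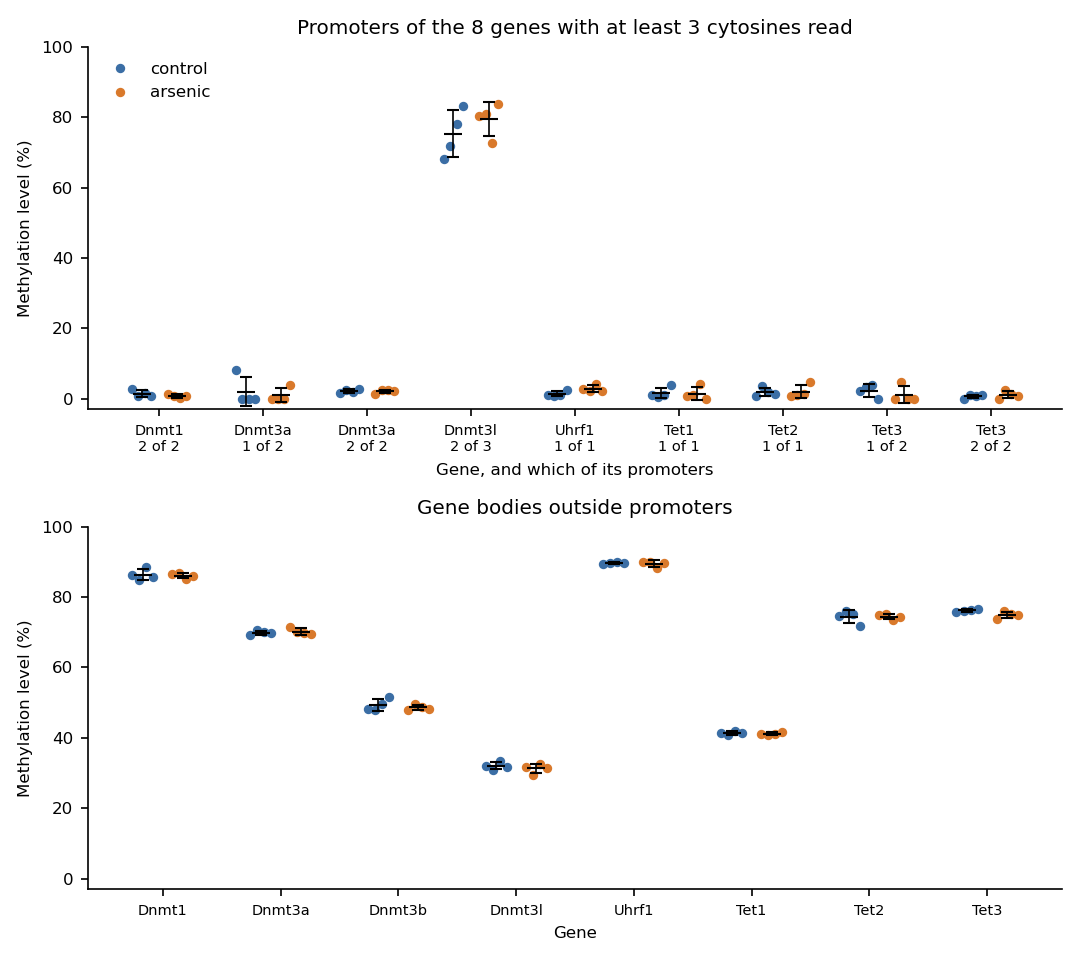
Methylation level (y axis, percent) of each promoter with at least 3 read cytosines (top) and each gene body (bottom) of the 8 genes in 4 control and 4 arsenic samples; points are samples, bars are the mean and SD. All promoters lie under 10% except Dnmt3l, at 68.1 to 83.8%, the bodies span 29.3 to 90.1%, and the groups overlap in every region.

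No promoter or body of the 8 genes was called between the groups. A logistic model of methylated and unmethylated reads with overdispersion, adjusted by the method of Benjamini and Hochberg over all regions, called 0 of the 9 promoters and 0 of the 8 bodies at q of at most 0.05, beside 0 of 13254 promoters (0%) and 0 of 18956 bodies (0%) in all, and limma on mean levels also called 0. At an unadjusted p of at most 0.05 the model had 0 of the 9 promoters and 1 of the 8 bodies, Dnmt3l (p = 0.0180 from the logistic model, n = 4 each, q = 0.866, not an exact test), where the share over all regions was 5.12% of promoters and 5.70% of bodies. Weighted by coverage, as in this model, the Dnmt3l body was at 39.3, 37.5, 39.5 and 36.4% in control and at 32.0, 35.0, 35.3 and 36.1% in arsenic samples. The groups did not overlap in these levels, with a difference of -3.60 points (exact permutation p = 0.0286), beside -0.748 points in the unweighted mean. This body was picked by its model p, which rests on the same weighted levels. The share of all bodies that separate in weighted levels was not computed. In unweighted means, none of the 9 joined promoters and none of the 8 bodies separated the groups, where 3.03% of all promoters and 3.93% of all bodies did. Of the 8 bodies, 6 were lower in the arsenic group, with a median difference of -0.248 points, beside 61.5% of all bodies and -0.276 points. Of the 9 promoters, 5 were lower, with a median of -0.113 points, beside 52.6% and -0.0617 points.

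Single cytosines were also compared with a test modelled on that of the study. It was a logistic regression on the reads pooled within each group, recomputed here with q by the method of Benjamini and Hochberg. A differentially methylated cytosine (DMC) has q of at most 0.01 over all cytosines and a difference of at least 10 points. Of the 1500 cytosines, 2 were DMCs (0.133%), beside 0.552% of all 2130064 cytosines. One was lower in the arsenic group, beside 0.323% of all cytosines, and 1 was higher, beside 0.228%. Both lie in coding exons and are shown with 30 bases around them, with the CpG in capitals. The Tet1 sequence is chr10:62812534-62812563 on the minus strand and the Uhrf1 sequence is chr17:56313110-56313139 on the plus strand.

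Tet1: atgttgcgggaccctacaatCGttgggtct
Uhrf1: aaccatgtCGaaagtgtgcctgccatgtgt

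At the Tet1 cytosine (chr10:62812543, 74781 bases downstream of the start) the control samples were at 100, 76.5, 94.7 and 100% and the arsenic samples at 80.8, 65.8, 73.7 and 87.3%, with 33 to 79 reads. The groups overlapped through control replicate 2. The pooled difference was -17.0 points (logistic regression, q = 0.000641), the means were 92.8% ± 11.2 and 76.9% ± 9.27 (SD, n = 4 each), and the exact permutation p was 0.0857. The cytosine of the same CpG on the other strand, with 144 to 298 reads, was at 82.8% ± 7.13 and 78.8% ± 2.23 (n = 4 each), a pooled difference of -3.41 points that was not called (q = 0.317). With both strands summed, the difference was -5.57 points (q = 0.0313), under the limit of 10 points.

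At the Uhrf1 cytosine (chr17:56313119) the control samples were at 75.9, 86.7, 81.5 and 83.8% and the arsenic samples at 100, 97.4, 90.9 and 87.7%, with 44 to 130 reads. The groups did not overlap. The pooled difference was 10.9 points (logistic regression, q = 0.00622), and the means were 82.0% ± 4.56 and 94.0% ± 5.68 (SD, n = 4 each; exact permutation p = 0.0286, the smallest possible). The other strand of this CpG went the opposite way, with 91.6% ± 2.51 in control and 86.1% ± 4.60 in arsenic samples (n = 4 each, 96 to 192 reads, pooled difference -5.56 points, q = 0.0676). With both strands summed, the difference was 0.176 points (q = 1.00). The 6 other cytosines within 100 bases differed by -5.53 to 2.60 points.

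**Figure D4:**
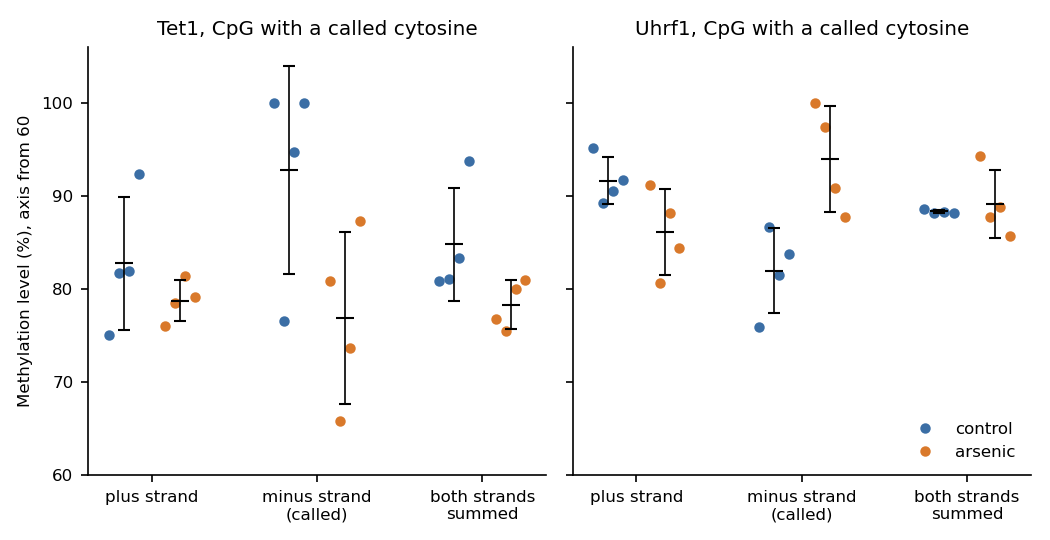
Methylation level (y axis, percent, drawn from 60) of the 2 CpGs that hold a DMC, in Tet1 (left) and Uhrf1 (right), for the cytosine of each strand and for both strands summed; points are the 4 control and 4 arsenic samples, bars are the mean and SD. Only the minus-strand cytosine passed the threshold in each, and in Uhrf1 the plus strand differed in the other direction.

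Neither DMC was called when the spread between samples entered the error. With overdispersion in the logistic test, q was 0.893 for both, and with limma on log2 ratios, q was 0.972 for both. Leaving out 1 library at a time gave 4 to 8 DMCs in the 8 genes (0.267 to 0.533% of the 1500), beside 0.541 to 0.615% of all cytosines in the same fits. The Tet1 cytosine was called in 6 of these 8 fits, not without control replicate 1 or arsenic replicate 2, and the Uhrf1 cytosine in 4, not without control replicate 1 or 3 or arsenic replicate 1 or 2, while 20 other cytosines were called in at least 1 fit. The tests with overdispersion and with limma called 0 of all 2130064 cytosines; at an unadjusted limma p under 0.05 there were 65 of the 1500 cytosines (4.33%) and 5.11% of all. Among the 444 CpGs of the 8 genes read on both strands, the arsenic minus control difference had the same sign on both in 204. A difference of 0 on 1 strand only was taken as unlike, so the number with opposite directions is not given. The strands differed by a median of 3.19 points in that difference.

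The samples of the groups did not overlap at 21 of the 1500 cytosines (1.40%), beside 2.10% of all cytosines. These lay in Dnmt1 and Tet3 (6 each), Tet1 (3), Dnmt3a and Tet2 (2 each), and Dnmt3l and Uhrf1 (1 each), and 9 of the 21 were lower in the arsenic group. By gene the share ran from 0% of the cytosines in Dnmt3b to 2.86% in Dnmt1. None was in a promoter, but 248 of the 270 promoter cytosines had a mean level under 10%. Samples that tie at 0% cannot be apart, so this absence is not read as a trait of the promoters.

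**Figure D5:**
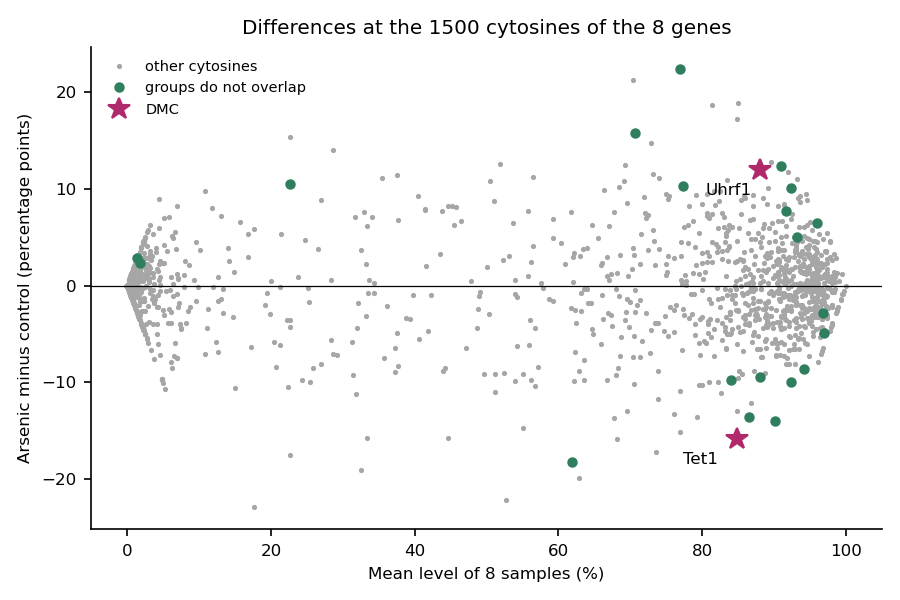
Difference in mean level between the arsenic and control groups (y axis, percentage points) against the mean level over the 8 samples (x axis, percent) for the 1500 cytosines of the 8 genes; green points have groups that do not overlap and stars are the 2 DMCs. The 21 cytosines without overlap, the Uhrf1 star among them, lie on both sides of 0, with 9 of them below.

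Cytosines at most 500 bases apart were also joined to 89 stretches of at least 3, which held 1477 of the 1500 cytosines. Of these, 14 (15.7%) were under 10% and 53 (59.6%) at 80% or more, beside 10.3 and 48.3% of the 169713 stretches of the whole table. In 3 stretches (3.37%) the groups did not overlap, beside 3.18% of all stretches. One is the stretch of 62 cytosines between the start sites of Uhrf1, described above, which was higher in arsenic samples by 1.74 points. The second is the unmethylated intron stretch of Tet1, at 3.46, 5.20, 4.91 and 7.60% in control and 2.41, 3.02, 3.19 and 2.46% in arsenic samples. Those levels are low enough to include unconverted reads. The third is the intron stretch of Tet3 at chr6:83409952-83410267 (12 cytosines), at 49.2, 46.5, 51.6 and 44.2% in control and 37.3, 41.3, 43.2 and 43.5% in arsenic samples, a difference of -6.52 points (47.9% ± 3.20 against 41.3% ± 2.88, SD, n = 4 each). Its 300 bases with the lowest coordinates hold few CpGs, with read cytosines at 16.8 to 80.2%. They are shown on the strand of Tet3, with the 6 of 7 CpGs that were read in capitals.

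Tet3 intron, chr6:83409952-83410251: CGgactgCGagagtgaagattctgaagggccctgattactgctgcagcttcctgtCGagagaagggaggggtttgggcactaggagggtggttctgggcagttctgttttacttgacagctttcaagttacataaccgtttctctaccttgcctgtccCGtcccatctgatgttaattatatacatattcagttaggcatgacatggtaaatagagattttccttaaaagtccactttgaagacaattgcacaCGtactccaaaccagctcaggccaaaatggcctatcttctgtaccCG

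Other genes of DNA methylation and demethylation were compared as a list of 37, of which 35 were annotated. Their 23 promoters that were read had a mean of 3.33%, 22 of them under 10%, like those of the 8 genes other than Dnmt3l. The exception was Xrcc1, a scaffold protein of base excision repair, whose promoter was at 32.1% ± 5.09 in control and 34.1% ± 3.79 in arsenic samples (4 cytosines, n = 4 each; exact permutation p = 0.571). None of these promoters or of the 34 bodies was called by the logistic model. The groups did not overlap in 2 of the 23 promoters, Trim28 and Ogt, and in 0 of the 34 bodies. Over all regions the shares were 3.03% of promoters and 3.93% of bodies. Trim28, a corepressor that protects imprints, was at 0% in all control and 1.67 to 7.21% in arsenic samples (3 cytosines). Ogt, the O-GlcNAc transferase that binds Tet proteins, was at 0.253 to 1.24% in control and 0% in all arsenic samples (9 cytosines). Both were named after their values were seen, and levels this low can include unconverted reads. In the arsenic group 12 of the 23 promoters and 20 of the 34 bodies were lower, beside 52.6% of all promoters and 61.5% of all bodies.

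The mean of the 8 bodies was nearly level across samples, from 64.2 to 65.6%. Over the 8 samples, the bodies with at least 30 cytosines whose levels followed it most closely, of 11236 searched, were Atoh1 (Pearson r = 0.991), Myo10 (r = 0.965) and Erp29 (r = 0.961), given as a description, as 33 bodies had r over 0.9. The mean of the 8 bodies was 65.6% in control replicate 3 and 64.2 to 64.8% in the other samples. The r values therefore rest largely on that library, and Atoh1 was near the floor, at 0.263 to 4.11%.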

How the data were processed

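The authors trimmed reads with Trim Galore (version 0.6.5), mapped them to mm10 with Bismark (version 0.22.3) and counted methylated and unmethylated reads per CpG cytosine with methylKit (version 1.22.0), strands apart. The deposited counts (coverage, converted and unconverted reads of 8 samples) hold cytosines with a coverage of 10 or more in every sample. No repeat of the alignment was made. C3H/HeN reads were compared with a C57BL/6J reference, so a strain variant at a CpG can be counted as conversion. Cytosines on chromosomes 1 to 19, X and Y were used, and 1541 others were left out. Regions came from curated RefSeq transcripts of GRCm38.p6, and sequences from RefSeq and that assembly. Levels of a region are unweighted means over its cytosines, and values are given with their SD over pools.

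Logistic tests were computed in Python 3.11.15 (scipy 1.17.1) and moderated tests with limma 3.58.1 (R 4.3.3), over all cytosines, all 13254 promoters or all 18956 bodies with at least 3 cytosines. Scripts were tested on simulated data. Alternatives were overdispersion, limma (pseudocount 1), a replicate block, a coverage of 20, summed strands, coverage weights, predicted transcripts and leaving out each sample. All genes, each DMC, list genes with a called region or a promoter over 20%, and the 3 most similar bodies were named; Trim28, Ogt and the marker promoters printed fall outside this rule and were named after their values were seen. The genes, lists and tests were chosen with earlier results of these data known.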

Additional observations from a re-analysis of the deposited data

Results flagged for a closer look

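In each group of 4 samples of the 17 regions with values and of the window upstream of Dnmt1, the highest or lowest sample was compared with the other 3. In 6 of 36 groups, a sample's gap to its nearest neighbour, as a share of the range, exceeded Dixon's 95% limit for 4 samples. For normally distributed values chance gives about 1 in 20 (1.80 of 36), but levels at 0% do not follow that distribution. Where the other 3 samples are at 0%, the gap is the whole range whatever its size. The count of 6 is therefore not set against that rate. In the Dnmt3a promoter of the longer transcripts, with 5 cytosines, control replicate 1 was at 8.12% and arsenic replicate 4 at 4.00%, and the other 3 samples of each group were at 0%. In the internal Dnmt3a promoter, arsenic replicate 1 was at 1.25%, below the others at 2.28 to 2.44%. In the Tet2 promoter, arsenic replicate 4 was at 4.84%, above the others at 0.837 to 1.27%. In the upstream Tet3 promoter, arsenic replicate 2 was at 4.82%, and the other 3 were at 0%. In the Uhrf1 body, arsenic replicate 3 was at 88.2%, below the others at 89.8 to 90.1%. No library accounts for more than 2 of the 6.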

How the results depend on the processing

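For the 1500 cytosines, 2 DMCs became 0 with overdispersion, 0 with limma, and 1 with strands summed, a Tet3 intron cytosine (chr6:83410092, -18.9 points, q = 0.00217) in place of both (0.0947%, beside 0.432% of all CpGs). The count was 2 with a coverage of 20 (0.228%, beside 0.713% of all), 2 without the 0.1% deepest CpGs (0.133%, beside 0.545%) and 2 with a replicate block (0.133%, beside 0.377%), and 4 to 8 without 1 replicate (0.267 to 0.533%, beside 0.541 to 0.615%). Cytosines without overlap numbered 34 to 58 without 1 replicate (2.27 to 3.87%, beside 4.14 to 4.29% of all), where fewer samples make separation easier. Promoters and bodies called stayed at 0 in all settings, the replicate block and start sites not joined included. The labels do not say whether replicate numbers pair samples. Correlations of deviations were -0.003 to -0.001 between samples of the same number and -0.004 to 0.004 between others, which cannot settle it. Of 184 repeated region differences, 152 kept direction and call, 29 changed sign and 3 passed p of 0.05: the Uhrf1 promoter, the Tet3 body and the weighted Dnmt3l body described above. The Uhrf1 promoter passed only without control replicate 4 and the Tet3 body only without arsenic replicate 2, where the omission separates the groups by itself. With coverage weights the sign turned for the Dnmt3a body (-0.546 points), the internal Dnmt3a promoter (0.00319), the Tet2 body (-0.0884) and promoter (-0.0101) and the Uhrf1 body (0.113). With a coverage of 20 it turned for the Dnmt1 body (0.0923), Tet1 promoter (1.03), Tet2 body (-0.0282) and Tet2 promoter (-0.195), and with strands summed for the Dnmt1 body (0.0567) and Tet2 promoter (-0.205). Without 1 replicate, differences ranged from -0.756 to 0.420 points for the Dnmt1 body, -0.0807 to 0.592 for the Dnmt3a body, -2.03 to 1.00 and -0.283 to 0.166 for the first and second Dnmt3a promoters, -1.18 to 0.0542 for the Dnmt3b body, -1.07 to 0.598 for the Tet1 promoter, -0.786 to 0.620 for the Tet2 body, -0.908 to 0.586 for the Tet2 promoter and -0.411 to 0.222 for the Uhrf1 body. None of these was called in any setting, and the cause was not tested. RRBS read 10.3% of the CpG cytosines, and at 10 reads per sample a single cytosine resolves only large differences.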
